A study of Mus musculus with 18 samples.

Results

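Acute-phase plasma proteins are made by the liver and secreted into blood, and their genes change when the body meets infection, injury or another stress. The report covers 10 genes of this class, chosen by name (Saa1, Saa2, Saa4, Orm1, Orm2, Lcn2, Hp, Hpx, Apcs and Itih4), of 54532 genes listed in each of the deposited tables. All 10 were found by symbol in both tables and passed the filter on low values, a mean of at least 0.5 FPKM (fragments counted on a gene, divided by its length in kilobases and by the size of the library) in the libraries of each fit. The study asked how a diet lacking riboflavin (vitamin B2), the precursor of the flavin cofactors FMN and FAD, alters the fasting liver, and whether fenofibrate, an agonist of the nuclear receptor PPARα, changes that outcome. RNA of whole liver was sequenced from wild-type male C57BL/6J mice that were put on their diets at 4 wk of age and fasted overnight before harvest, with 1 library per mouse. In the first experiment, 5 mice ate the control diet (Ctrl) and 5 the riboflavin-deficient diet (B2D) for 1 month. In the second, 4 mice ate the control diet (Ctrl+FF) and 4 the deficient diet (B2D+FF) for 9 weeks, and both groups were gavaged with fenofibrate in weeks 7 to 9, with a last dose 2 h before harvest. Both groups of the second experiment carry the drug, so B2D+FF was tested only against Ctrl+FF, and fenofibrate, time on diet and the separately scaled table cannot be told apart as sources of a difference between the experiments.

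In the acute-phase response, IL-6 acting through STAT3, IL-1 and TNF acting through NF-kB, and C/EBP factors raise the transcription of one set of plasma protein genes in hepatocytes, while other liver products such as albumin fall. Glucocorticoids usually strengthen the response. SAA1 and SAA2 are the strongly inducible serum amyloid A proteins carried on high-density lipoprotein, whereas SAA4 is the constitutive one, and serum amyloid P component (Apcs) is the major inducible pentraxin of the mouse.

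Between 15320729 and 21898502 reads per library were counted on genes. Among the lower values of each library, the product of FPKM and gene length was checked for equal steps. In 100% of these it came out as a whole number of steps (tolerance 0.02 of a step). The size of the step gave the reads behind each value, rounded to whole numbers, and high values such as those of Hp and Hpx were not checked. All 7 hepatocyte markers were expressed in every group, with summed FPKM from 20468 to 45186. A single library, B2D 5, stood apart within its group for several of the genes: it held the highest value of the 5 B2D mice for 8 of the 10 genes and the highest of all 10 mice of the first experiment for 7. For Hpx it was the lowest of the 5 B2D mice. Results that rest on B2D 5 are therefore given with and without it. How often this library was the highest over all genes was not counted. In whole liver RNA, fewer cells of a type and less RNA per cell cannot be told apart. The labels do not say whether mice were caged or harvested together, so the p-values measure the spread between these libraries only.

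Serum amyloid A genes sit side by side on chromosome 7 of GRCm38, in the order Saa3, Saa4, Saa1 and Saa2. Saa4 (ENSMUSG00000040017) spans 46727998 to 46732603 on the minus strand, Saa1 (ENSMUSG00000074115) 46740497 to 46742980 on the minus strand, and Saa2 (ENSMUSG00000057465) 46751790 to 46754313 on the plus strand, with 8809 bases between Saa1 and Saa2. The orosomucoid genes lie on the plus strand of chromosome 4, with Orm1 (ENSMUSG00000039196) from 63344560 to 63348163 and Orm2 (ENSMUSG00000061540) from 63362449 to 63365878. No other gene of GENCODE vM21 overlaps any of the 10. Main coding transcripts of Saa1 and Saa2 were identical at 94.4% of 606 aligned bases, and those of Orm1 and Orm2 at 91% of 775, so reads could in part be split between near-identical copies. No stretch of 100 bases of the Saa1 transcript recurred exactly in Saa2, and 6.95% of those of Orm1 recurred in Orm2.

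The sequences just upstream of the genes that separated the diets are shown because acute-phase induction is read through short factor motifs close to the start. Promoter windows of RefSeq on GRCm38.p6 (250 bases before to 50 after the start) were found for 8 of the 10 genes, and Orm1 and Hp had no entry in the table used. Each window was searched on both strands for TTGNNCAA (C/EBP), TTCNNNGAA (STAT), GGNNTTTCC (NF-kB), ACANNNTGT (glucocorticoid receptor) and GTTAATNAT (HNF1). The bases from 250 to 44 before the start are printed 5′ to 3′ on the gene's strand, with matches in capitals.
Saa1, chr7:46743024-46743230, minus strand: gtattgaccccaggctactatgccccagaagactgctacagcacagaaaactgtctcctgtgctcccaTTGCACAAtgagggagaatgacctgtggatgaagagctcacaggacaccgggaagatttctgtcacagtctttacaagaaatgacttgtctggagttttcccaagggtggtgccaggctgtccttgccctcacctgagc
Saa2, chr7:46751583-46751789, plus strand: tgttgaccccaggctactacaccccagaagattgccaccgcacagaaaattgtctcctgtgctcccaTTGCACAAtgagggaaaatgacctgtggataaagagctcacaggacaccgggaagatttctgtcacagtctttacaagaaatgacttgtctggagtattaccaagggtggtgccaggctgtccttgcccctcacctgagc
Saa4, chr7:46732647-46732853, minus strand: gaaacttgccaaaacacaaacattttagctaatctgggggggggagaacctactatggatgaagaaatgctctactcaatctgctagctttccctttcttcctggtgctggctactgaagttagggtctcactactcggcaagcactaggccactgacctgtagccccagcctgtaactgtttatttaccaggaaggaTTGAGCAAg
Orm2, chr4:63362199-63362405, plus strand: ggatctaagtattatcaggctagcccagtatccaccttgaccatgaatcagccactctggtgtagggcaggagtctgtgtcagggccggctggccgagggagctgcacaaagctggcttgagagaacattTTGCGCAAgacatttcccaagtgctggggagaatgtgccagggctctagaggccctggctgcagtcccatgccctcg
Lcn2, chr2:32387783-32387989, minus strand: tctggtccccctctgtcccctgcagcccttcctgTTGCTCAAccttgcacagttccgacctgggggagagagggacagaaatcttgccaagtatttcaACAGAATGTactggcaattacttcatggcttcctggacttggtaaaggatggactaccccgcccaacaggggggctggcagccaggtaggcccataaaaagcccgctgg
Apcs, chr1:172895098-172895304, minus strand: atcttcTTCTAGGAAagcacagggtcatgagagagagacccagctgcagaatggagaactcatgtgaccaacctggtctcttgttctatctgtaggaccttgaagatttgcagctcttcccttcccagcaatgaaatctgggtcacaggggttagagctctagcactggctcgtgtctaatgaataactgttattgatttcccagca

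The C/EBP letters occurred in the windows of Saa1, Saa2, Saa4, Orm2 and Lcn2, and in 6.4% of all 32851 promoter windows of the same length. In Saa1 and Saa2 the match began 182 and 183 bases before the start, within windows that were identical at 96% of 299 aligned bases. Apcs held the STAT letters (8.3% of all windows), as did Itih4 between 51 and 43 bases before its start. Lcn2 held the glucocorticoid receptor letters (6.85% of all windows) beside the C/EBP match. The NF-kB letters (5.82% of all windows) and the HNF1 letters (0.801%) were in none of the 8 windows, and Hpx held no match. A match describes the letters of the window and is not a binding site. Only a single spelling of each motif was searched, so a window without a match may hold another form of it.

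**Figure D1:**
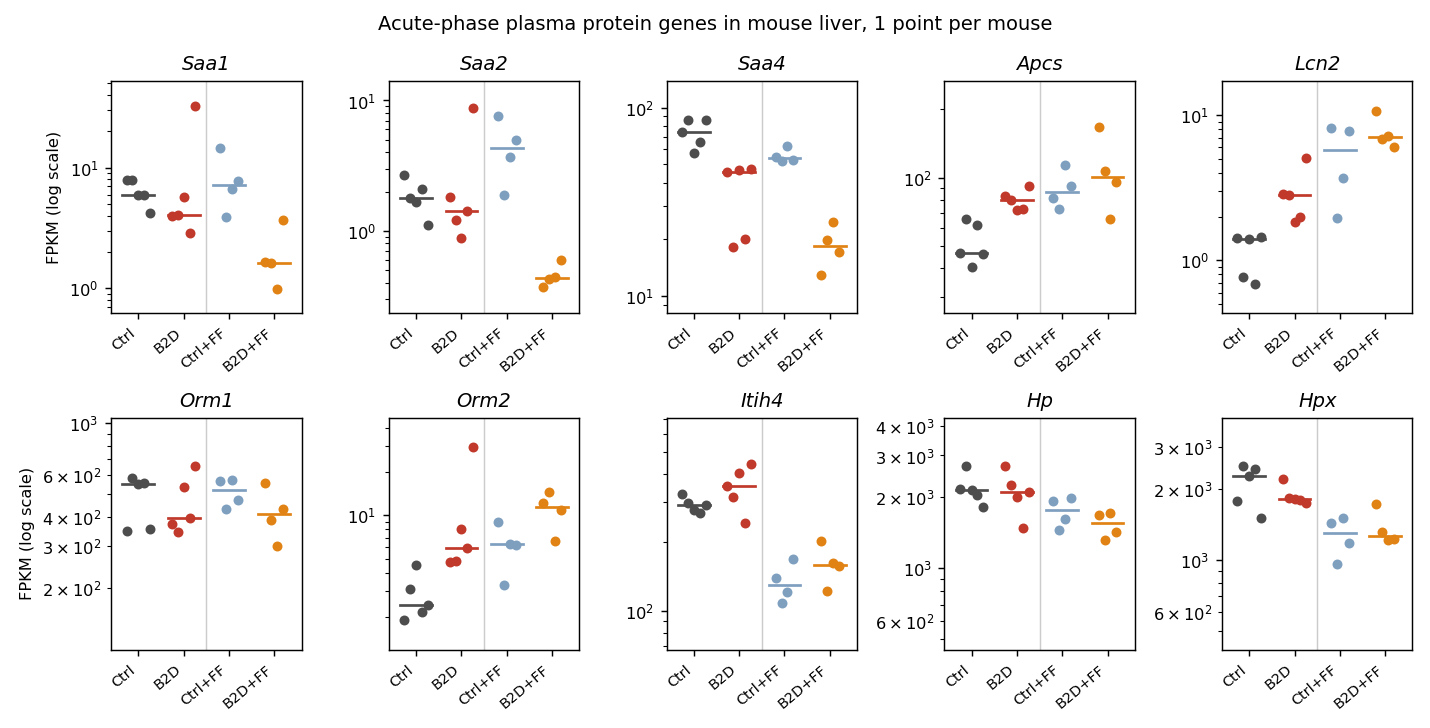
FPKM of the 10 genes on a log scale, with 1 point per mouse and a line at the median of each group (5 Ctrl, 5 B2D, 4 Ctrl+FF and 4 B2D+FF). A vertical line parts the experiments, which were scaled separately. All B2D points lie below the Ctrl points for Saa4 and above them for Apcs, Lcn2 and Orm2, all B2D+FF points lie below the Ctrl+FF points for Saa1, Saa2 and Saa4, and 1 B2D mouse stands high for Saa1, Saa2 and Orm2.

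Levels of the 10 genes ran over more than 3 orders of magnitude. Hp and Hpx, which encode the plasma proteins that bind free haemoglobin and heme, led in every group, followed by Orm1 and Itih4. In Ctrl the medians were 2252 FPKM for Hpx and 2151 for Hp, whose ranges overlapped, then 549 for Orm1, 293 for Itih4, 74.5 for Saa4 and 46.4 for Apcs. The low end was held by Saa1 (median 5.90), Orm2 (2.41), Saa2 (1.78) and Lcn2 (1.41). In Ctrl the range of Saa2 overlapped those of Orm2 and Lcn2, which did not overlap each other. The deposited gene lengths merge all transcripts, and for Saa1 the length of 2478 bases is well above the 609 bases of the main coding transcript, so levels per length are understated for genes with retained-intron forms.

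After 1 month of B2D without fenofibrate, 2 of the 10 genes rose, Apcs and Lcn2, and none passed as lower in limma, although Saa4 passed in voom, a fit of the reads recovered from the FPKM values. Across all 11574 genes tested, 2.7% passed the same test, 0.769% as higher and 1.94% as lower (limma on log2(FPKM + 1), Benjamini-Hochberg adjusted p under 0.05). An unadjusted p under 0.05 was reached by 4 of the 10 (Apcs, Lcn2, Orm2 and Saa4) and by 18.4% of all genes tested. Every B2D mouse lay outside the Ctrl range for 4 of the 10, Apcs, Lcn2 and Orm2 above it and Saa4 below it, against 4.98% of all genes tested (2.08% above and 2.89% below). The median log2 fold change of the 10 genes was 0.083 with all libraries, beside -0.0013 for all genes tested. Without B2D 5, Saa1, Saa2, Saa4, Orm1, Hp and Hpx had negative values and Orm2, Lcn2, Apcs and Itih4 positive ones. The sign of this median thus rested on that mouse. All fold changes are of log2(FPKM + 1), so those of genes with low values come out too small.

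Apcs (ENSMUSG00000026542, chromosome 1, 172893961 to 172895041) encodes serum amyloid P component, a pentraxin that binds amyloid fibrils and microbial surfaces. Its FPKM in Ctrl 1 to 5 was 46.4, 65.6, 40.5, 61.9 and 45.9. In B2D 1 to 5 it was 83.2, 79.7, 72.2, 72.5 and 91.9. Every deficient mouse was above every control mouse, and B2D 5 was the highest. Ctrl averaged 52.1 ± 10.98 FPKM (SD, n = 5) against 79.9 ± 8.21 for B2D (SD, n = 5), and the log2 fold change was 0.63 with a standard error (SE) of 0.143 and a limma adjusted p of 0.0397. The smallest exact Mann-Whitney p that 5 mice against 5 allow, two-sided, is the 0.00794 it reached.

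Lcn2 (ENSMUSG00000026822, chromosome 2, 32384633 to 32388252) encodes lipocalin 2, which withholds iron from bacteria by binding their siderophores and is made both by stressed hepatocytes and by neutrophils. In Ctrl 1 to 5 it stood at 1.41, 0.768, 1.41, 0.692 and 1.46 FPKM, from 35 to 80 reads. In B2D 1 to 5 it stood at 2.88, 2.81, 1.85, 1.98 and 5.05 FPKM, from 85 to 252 reads. The ranges did not overlap, and B2D 5 was again the highest. The mean was 2.54 times that of Ctrl, with a log2 fold change of 0.83 (SE 0.198, limma adjusted p = 0.0477).

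Neutrophil markers moved in the same direction as Lcn2. The summed FPKM of 12 markers was 0.991 to 2.70 in Ctrl and 2.38 to 6.96 in B2D, with 3 of the 12 above the filter, all 3 with positive log2 fold changes and none past the threshold. Of these, S100a9 had the smallest adjusted p (log2 fold change 0.77, limma adjusted p = 0.0621). Ly6g was at 0 in every library of both groups and Mpo in every B2D library. B2D 5, with the most Lcn2, had a marker sum of 3.06, below those of B2D 2, B2D 3 and B2D 4. The part of neutrophils in the rise of Lcn2 was not tested.

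**Figure D2:**
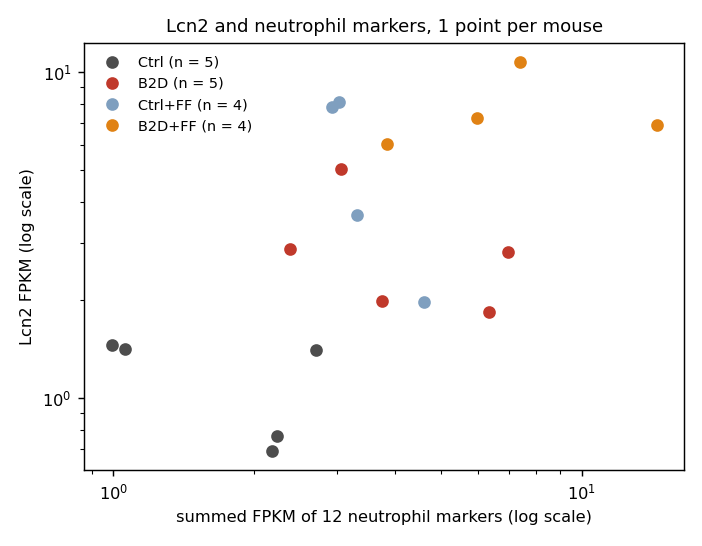
FPKM of Lcn2 against the summed FPKM of 12 neutrophil markers, both on log scales, with 1 point per mouse coloured by group. B2D and B2D+FF mice reach higher marker sums than their controls, and the B2D mouse with the most Lcn2, at 5.05 FPKM, has a marker sum of 3.06.

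Orm2, 1 of 3 neighbouring genes for α1-acid glycoprotein, a drug-binding plasma protein, separated the diets without passing the test. It measured 1.89, 3.12, 4.51, 2.15 and 2.41 FPKM in Ctrl 1 to 5. It measured 4.77, 4.84, 8.09, 5.98 and 29.4 in B2D 1 to 5. The groups met closely, since the lowest B2D mouse exceeded the highest Ctrl mouse only by 4.77 to 4.51, and B2D 5 was far above the rest. The log2 fold change was 1.31 (SE 0.396, limma adjusted p = 0.110, exact Mann-Whitney p = 0.00794). Without B2D 5 it was smaller, at 0.87, and passed (limma adjusted p = 0.0473). Its more abundant paralog Orm1 showed no such separation, with 349 to 585 FPKM (median 549) in Ctrl and 344 to 656 (median 397) in B2D, a log2 fold change of -0.06 (95% interval -0.53 to 0.40, limma adjusted p = 0.903) that turned to 0.16 after quantile normalization.

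Saa4, the constitutive serum amyloid A gene, was lower in all 5 deficient mice. Its FPKM in Ctrl 1 to 5 was 74.5, 85.5, 57.3, 65.8 and 86.5. In B2D 1 to 5 it was 45.5, 18.3, 46.6, 20.2 and 47.4. B2D mice formed a spread-out group in which B2D 2 and B2D 4 lay well below the others. The mean of 35.6 ± 15.0 (SD, n = 5) was 0.482 times the Ctrl mean of 73.9 ± 12.6 (SD, n = 5), a log2 fold change of -1.13 (SE 0.275) whose limma adjusted p of 0.0505 missed the threshold. It passed in 7 of 18 alternative fits, among them those with array weights, with voom on recovered reads and without B2D 5 (limma adjusted p = 0.0428).

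For the inducible Saa1 and Saa2 the direction turned with a single mouse. Saa1 measured 7.85, 7.99, 5.89, 5.90 and 4.25 FPKM in Ctrl 1 to 5, against 3.99, 4.09, 5.72, 2.87 and 32.8 in B2D 1 to 5. Saa2 measured 2.70, 1.78, 1.65, 2.08 and 1.10 in Ctrl 1 to 5, against 1.83, 1.21, 0.882, 1.41 and 8.81 in B2D 1 to 5. In both genes 4 of the B2D mice lay within or below the Ctrl range and B2D 5 far above it, at 1543 reads for Saa1 and 422 for Saa2. The log2 fold changes of 0.03 for Saa1 (95% interval -1.01 to 1.08, limma adjusted p = 0.978) and 0.13 for Saa2 (-0.68 to 0.94, limma adjusted p = 0.881) became -0.51 and -0.29 without B2D 5, neither of which passed (limma adjusted p = 0.195 and 0.408).

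Haptoglobin, hemopexin and Itih4 did not pass the test without fenofibrate. Hp (ENSMUSG00000031722, chromosome 8, 109575128 to 109579172) ran from 1824 to 2708 FPKM (median 2151) in Ctrl and from 1475 to 2699 (median 2095) in B2D. Hpx (ENSMUSG00000030895, chromosome 7, 105591613 to 105600137) ran from 1501 to 2494 (median 2252) and from 1745 to 2194 (median 1813). Itih4 (ENSMUSG00000021922, chromosome 14, 30886476 to 30902353), which encodes a heavy chain of the inter-α-trypsin inhibitor family, ran from 269 to 326 (median 293) and from 245 to 441 (median 354). All 3 pairs of groups overlapped. The 95% intervals of the log2 fold change were -0.42 to 0.29 for Hp, -0.47 to 0.20 for Hpx and -0.09 to 0.57 for Itih4.

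Calls in this comparison rested on the choice of libraries. With each library left out in turn, 0 to 2 of the 10 genes passed: Apcs passed only without Ctrl 2, and Lcn2 only without B2D 3. The other passes were those of Saa4, as lower in 3 of these fits, and of Orm2, as higher without B2D 5. Over all alternatives the limma adjusted p ran from 0.0163 to 0.105 for Apcs and from 0.0282 to 0.155 for Lcn2, always with a positive log2 fold change. Neither Apcs nor Lcn2 passed without B2D 5 (limma adjusted p = 0.0812 for Apcs and 0.0560 for Lcn2). The log2 fold change was then 0.58 for Apcs, against 0.63 with all libraries, and 0.66 for Lcn2, against 0.83. For Lcn2 this was the lowest value with any library left out.

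**Figure D3:**
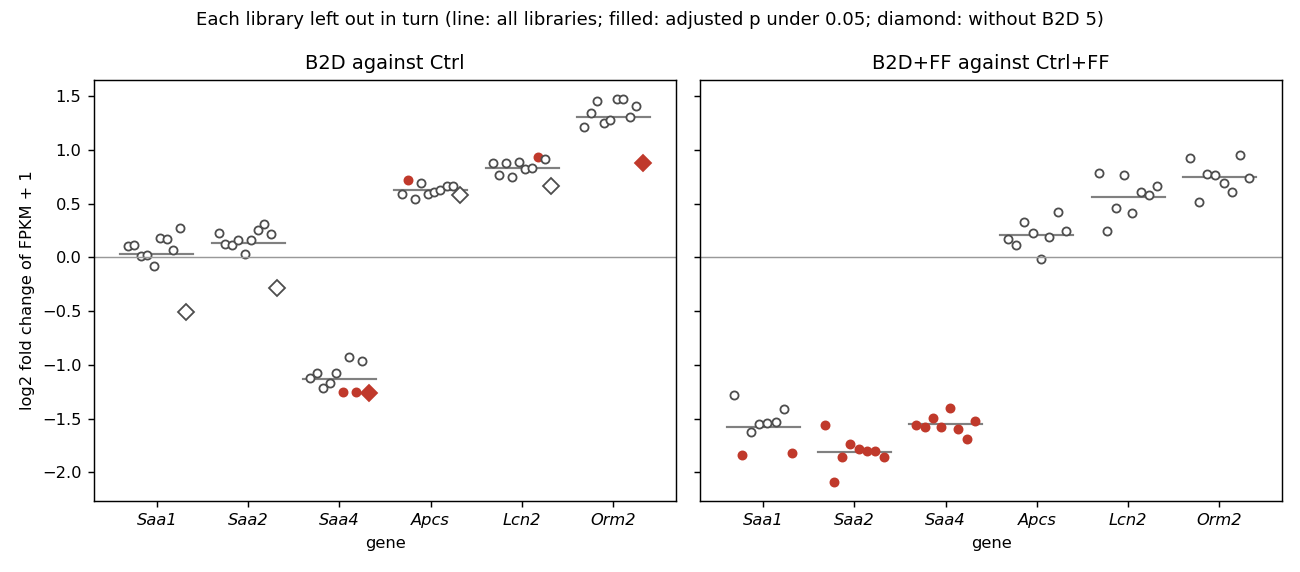
Log2 fold change of 6 genes with each library left out in turn, for B2D against Ctrl (10 fits) and B2D+FF against Ctrl+FF (8 fits). Lines give the value with all libraries, filled points passed at an adjusted p under 0.05, and diamonds mark the fit without B2D 5, where Saa1 falls to -0.51 and Saa2 to -0.29. With fenofibrate, Saa2 and Saa4 stay filled in all 8 fits.

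In mice given fenofibrate, all 3 serum amyloid A genes among the 10 fell on the deficient diet. Saa1, Saa2 and Saa4 passed as lower in B2D+FF and none of the 10 genes as higher in limma (Orm2 alone was higher at an unadjusted p under 0.05), while 4.45% of all 11878 genes tested passed, 2.21% as lower and 2.24% as higher. At an unadjusted p under 0.05 these 4 of the 10 would pass, against 21.2% of all genes. The 2 groups did not overlap for the 3 serum amyloid A genes, all lower, against 14.3% of all genes tested, 6.44% lower and 7.82% higher. The median log2 fold change of the 10 genes was -0.03, beside 0.013 for all genes tested. Saa3, a relative largely made outside hepatocytes that is not among the 10, also passed as lower.

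Saa4 measured 54.8, 52.1, 62.6 and 52.6 FPKM in Ctrl+FF 1 to 4. It measured 13.0, 19.9, 24.6 and 17.1 in B2D+FF 1 to 4. The Ctrl+FF mice were close together, the B2D+FF mice ran from 13.0 to 24.6, and the groups lay far apart. Ctrl+FF averaged 55.5 ± 4.87 FPKM (SD, n = 4) against 18.7 ± 4.89 for B2D+FF (SD, n = 4), a ratio of 0.336 and a log2 fold change of -1.55 (SE 0.169, limma adjusted p = 0.00252), and it passed in all 16 alternative fits. Its exact Mann-Whitney p of 0.0286, two-sided, is the smallest that 4 mice against 4 allow.

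Saa2 fell the furthest of the 10. Its FPKM was 7.60, 1.88, 3.66 and 4.94 in Ctrl+FF 1 to 4, from 78 to 314 reads. It was 0.373, 0.430, 0.441 and 0.601 in B2D+FF 1 to 4, from 16 to 31 reads. The control mice spread widely while the deficient mice sat close together below them. The ratio of means was 0.102, and the log2 fold change was -1.81 (SE 0.275, limma adjusted p = 0.0103), past the threshold in all 15 alternative fits that tested it.

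Saa1 was lower too, with groups that lay close to each other but did not overlap. It measured 14.5, 3.90, 6.62 and 7.83 FPKM in Ctrl+FF 1 to 4, and 1.66, 1.61, 0.995 and 3.68 in B2D+FF 1 to 4. Ctrl+FF 2 was the lowest control for both Saa1 and Saa2, and B2D+FF 4 the highest deficient mouse for both. The ratio of means was 0.242, with a log2 fold change of -1.58 (SE 0.350, limma adjusted p = 0.0387). This call was the least firm of the 3, since it was kept in 7 of 16 alternative fits and in 2 of the 8 that left out a library, those without Ctrl+FF 2 or B2D+FF 4, with adjusted p from 0.0183 to 0.108 over all alternatives. Saa3 (ENSMUSG00000040026, chromosome 7, 46711998 to 46715700) stood at 0.748, 0.979, 1.44 and 1.22 FPKM in Ctrl+FF 1 to 4 and at 0.338, 0.245, 0.0556 and 0.206 in B2D+FF 1 to 4, from 3 to 15 reads in the latter, and was lower by -0.79 on the log2 scale (limma adjusted p = 0.0109).

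Of the orosomucoid genes, Orm1 and Orm2 did not pass with fenofibrate and Orm3 rose. Orm2 measured 9.04, 3.29, 6.38 and 6.24 FPKM in Ctrl+FF 1 to 4 and 12.1, 14.5, 6.61 and 10.8 in B2D+FF 1 to 4, overlapping, with a log2 fold change of 0.75 (SE 0.276, limma adjusted p = 0.159). Orm3, the third gene of the cluster and not among the 10, rose with no overlap, from 7.02, 6.37, 7.96 and 8.24 FPKM to 21.7, 11.9, 16.2 and 16.0, a log2 fold change of 1.03 (SE 0.160, limma adjusted p = 0.0105). Orm1 ran from 432 to 573 FPKM (median 519) in Ctrl+FF and from 302 to 556 (median 410) in B2D+FF, with 3 of the 4 B2D+FF mice below the lowest control and a 95% interval of the log2 fold change from -0.72 to 0.11. Within 1 cluster the 3 paralogs thus gave log2 fold changes of -0.31, 0.75 and 1.03, in the order Orm1, Orm2 and Orm3, and the differences between paralogs were not tested.

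Apcs and Lcn2 did not pass with fenofibrate. Apcs measured 81.7, 72.8, 114 and 91.8 FPKM in Ctrl+FF 1 to 4 and 166, 106, 66.0 and 95.4 in B2D+FF 1 to 4, a log2 fold change of 0.21 (95% interval -0.36 to 0.78, limma adjusted p = 0.683). Lcn2 measured 8.13, 1.97, 3.66 and 7.83 in Ctrl+FF 1 to 4 and 10.7, 6.88, 7.24 and 6.01 in B2D+FF 1 to 4, a log2 fold change of 0.56 (-0.21 to 1.34, limma adjusted p = 0.382). In both genes the deficient mice overlapped the controls. Neutrophil marker sums were 2.93 to 4.61 in Ctrl+FF and 3.83 to 14.5 in B2D+FF, where the next highest was 7.38. Of the 12 markers 4 were tested, all 4 with positive log2 fold changes. Retnlg, a neutrophil resistin-like gene, alone passed as higher (log2 fold change 0.97, limma adjusted p = 0.0280). Mpo and Camp were at 0 in every library of both groups, Ly6g and Ltf only in B2D+FF, and Ngp only in Ctrl+FF.

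Hp, Hpx and Itih4 overlapped between the diets and did not pass with fenofibrate either. Hp ran from 1447 to 1981 FPKM (median 1766) in Ctrl+FF and from 1315 to 1713 (median 1548) in B2D+FF. Hpx ran from 956 to 1499 (median 1303) and from 1217 to 1718 (median 1267), and Itih4 from 108 to 169 (median 131) and from 122 to 204 (median 160). For each of the 3, at least 1 B2D+FF mouse lay outside the control range. The 95% intervals of the log2 fold change were -0.50 to 0.14 for Hp, -0.27 to 0.51 for Hpx and -0.15 to 0.66 for Itih4, and the sign for Hp turned after quantile normalization, to 0.078.

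**Figure D4:**
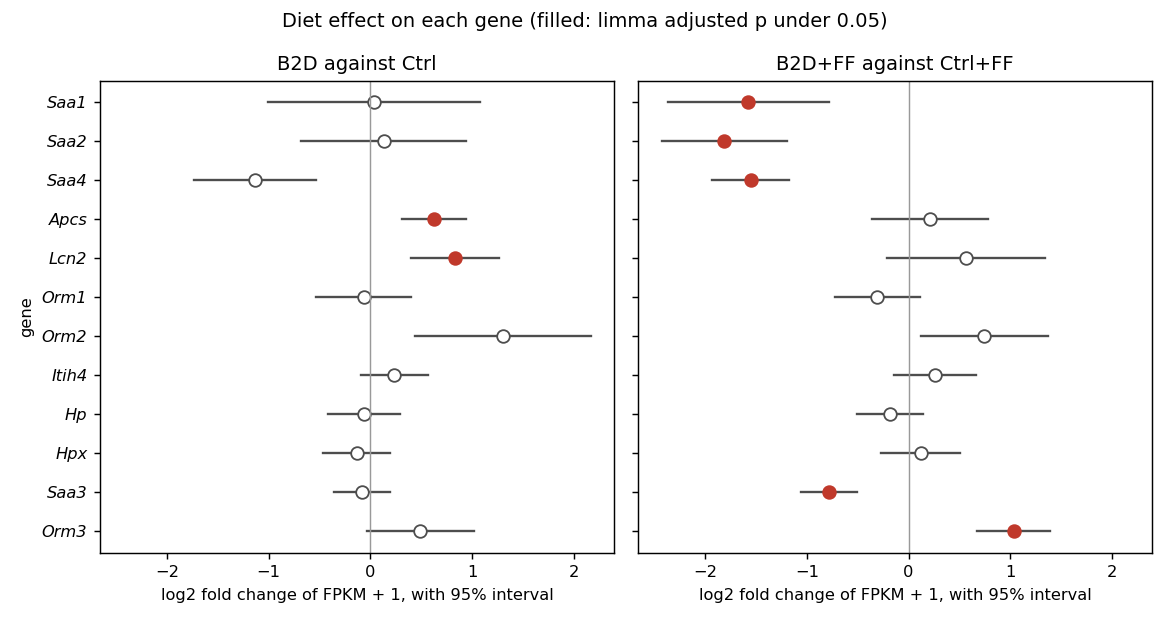
Log2 fold change of FPKM + 1 for the 10 genes and their relatives Saa3 and Orm3, with 95% intervals, for B2D against Ctrl (5 and 5 mice) and B2D+FF against Ctrl+FF (4 and 4 mice). Filled points passed at a limma adjusted p under 0.05: Apcs and Lcn2 above 0 in the first comparison, and Saa1, Saa2, Saa4 and Saa3 below 0 and Orm3 above 0 in the second.

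The difference of the diet effects between the experiments was tested in 1 fit of all 18 libraries. None of the 10 genes passed at an adjusted p under 0.05 in limma, where 0.145% of 11031 genes did (0.0816% higher and 0.0635% lower), and 2 of the 10 had an unadjusted p under 0.05, against 11.9% of all genes. These were Saa2, with a difference of -1.94 on the log2 scale (95% interval -3.04 to -0.84, limma adjusted p = 0.141), and Saa1, with -1.61 (-3.02 to -0.20, limma adjusted p = 0.352). For Saa4, which did not overlap between the diets in either experiment, the difference was -0.42 (-1.19 to 0.35, limma adjusted p = 0.671). The voom fit on recovered reads also called none of the 10. Without B2D 5 the differences were -1.52 for Saa2 (limma adjusted p = 0.0885) and -1.06 for Saa1 (limma adjusted p = 0.347).

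Other genes of the response were read from lists. Of 34 other positive acute-phase genes, 32 were tested in each experiment. Without fenofibrate 2 rose and 2 fell, where 0.769% of all genes passed as higher and 1.94% as lower, with a median log2 fold change of 0.0036, beside -0.0013 for all genes tested. Those that rose were Mt1, the zinc-binding metallothionein (1.93, limma adjusted p = 0.0148), and Hamp2, a hepcidin paralog (1.56, limma adjusted p = 0.0384). Those that fell were Ifitm3, an interferon-induced membrane protein (-0.63, limma adjusted p = 0.0177), and Mbl1, a mannose-binding lectin (-0.67, limma adjusted p = 0.0368). With fenofibrate 2 rose and 4 fell, where 2.24% of all genes passed as higher and 2.21% as lower, with a median of -0.012 beside 0.013 for all genes: Orm3 and Mt1 (1.57, limma adjusted p = 0.0179) rose, and Saa3, Ifitm3 (-1.34, limma adjusted p = 0.0187), Mbl1 and Mbl2 fell. Mt1 was thus higher and Ifitm3 and Mbl1 lower under B2D in both experiments, which share no libraries.

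Negative acute-phase genes, those that usually fall in the response, did not mirror the serum amyloid A genes. Of 14, none passed without fenofibrate, where the smallest adjusted p values were those of Igfals, a carrier of IGF1 (log2 fold change -0.60, limma adjusted p = 0.165), and Apom (-0.28, limma adjusted p = 0.179). With fenofibrate 2 of the 14 fell, against 2.21% of all genes tested: Igfals (-0.52, limma adjusted p = 0.0333) and Serpina6, the plasma carrier of corticosteroids (-1.56, limma adjusted p = 0.0268). In limma at an unadjusted p under 0.05, 2 of the 14 would pass without fenofibrate, where voom called none, and 7 with it, against 18.4% and 21.2% of all genes tested. The median log2 fold change was -0.17 without and -0.32 with fenofibrate, and 12 and 11 of the 14 had negative values.

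Of 17 tested genes of IL-6, STAT3 and C/EBP signalling, none passed without fenofibrate, the nearest being the receptor genes Il11ra1 (-0.25, limma adjusted p = 0.184) and Lifr (-0.42, limma adjusted p = 0.205). With fenofibrate, Cebpa fell (-0.57, limma adjusted p = 0.0205), and Cebpd (0.55, limma adjusted p = 0.0465), a C/EBP induced by IL-6, and Junb (1.16, limma adjusted p = 0.0461), an immediate early gene, rose. Il6, Osmr and Socs1 were below the filter in both experiments. Of 18 tested genes of IL-1, TNF and NF-kB signalling, none passed without fenofibrate (Nfkb1 at 0.19, limma adjusted p = 0.246, and Traf6 at 0.23, limma adjusted p = 0.249, came nearest), and with fenofibrate 1 rose, Il1r1, the signalling receptor of IL-1 (0.71, limma adjusted p = 0.0312). Without fenofibrate 2 genes of each list had an unadjusted p under 0.05 in limma, against 18.4% of all genes tested, and voom called none. With fenofibrate 6 of the 17 and 4 of the 18 had such a p, against 21.2% of all genes tested, and 3 of the 17 and 1 of the 18 passed, against 4.45%. Medians of the 2 lists lay between -0.04 and 0.076.

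Among receptors and downstream handling of the plasma proteins, none of 12 tested genes without and 11 with fenofibrate passed. The nearest were Hmox1, which degrades heme (0.40, limma adjusted p = 0.137), and Scarb1, a receptor of high-density lipoprotein (-0.37, limma adjusted p = 0.230), without fenofibrate, and Lrp1, which takes up hemopexin with its heme (-0.48, limma adjusted p = 0.0916), and Scarb1 (-0.36, limma adjusted p = 0.118) with it. At an unadjusted p under 0.05 in limma, 2 of the 12 and 5 of the 11 would pass, against 18.4% and 21.2% of all genes tested. The voom fit called none.

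Glucocorticoid-responsive genes had the highest medians of the 7 lists of pathway genes, 0.49 without and 0.54 with fenofibrate. None of 8 passed without fenofibrate (Sgk1 at 0.68, limma adjusted p = 0.0685, and Tat at 0.76, limma adjusted p = 0.247). With it 3 of 8 rose, against 2.24% of all genes tested: Zbtb16 (1.23, limma adjusted p = 0.0135), Tat, a tyrosine-degrading enzyme (1.35, limma adjusted p = 0.0188), and Fkbp5, a chaperone that binds the receptor (0.58, limma adjusted p = 0.0275). Of 8 liver-enriched transcription factors, none passed without fenofibrate (Foxa2 at 0.36, limma adjusted p = 0.181, and Hnf4a at 0.45, limma adjusted p = 0.308). With it 1 of the 8 fell, Onecut1 (-0.90, limma adjusted p = 0.0203), against 2.21% of all genes tested. Without fenofibrate an unadjusted p under 0.05 was reached in limma by 2 of the 8 glucocorticoid-responsive genes and 1 of the 8 factors, against 18.4% of all genes tested. There voom called Sgk1 alone. With fenofibrate it was reached by 5 of the 8 glucocorticoid-responsive genes and 4 of the 8 factors, against 21.2% of all genes tested.

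**Figure D5:**
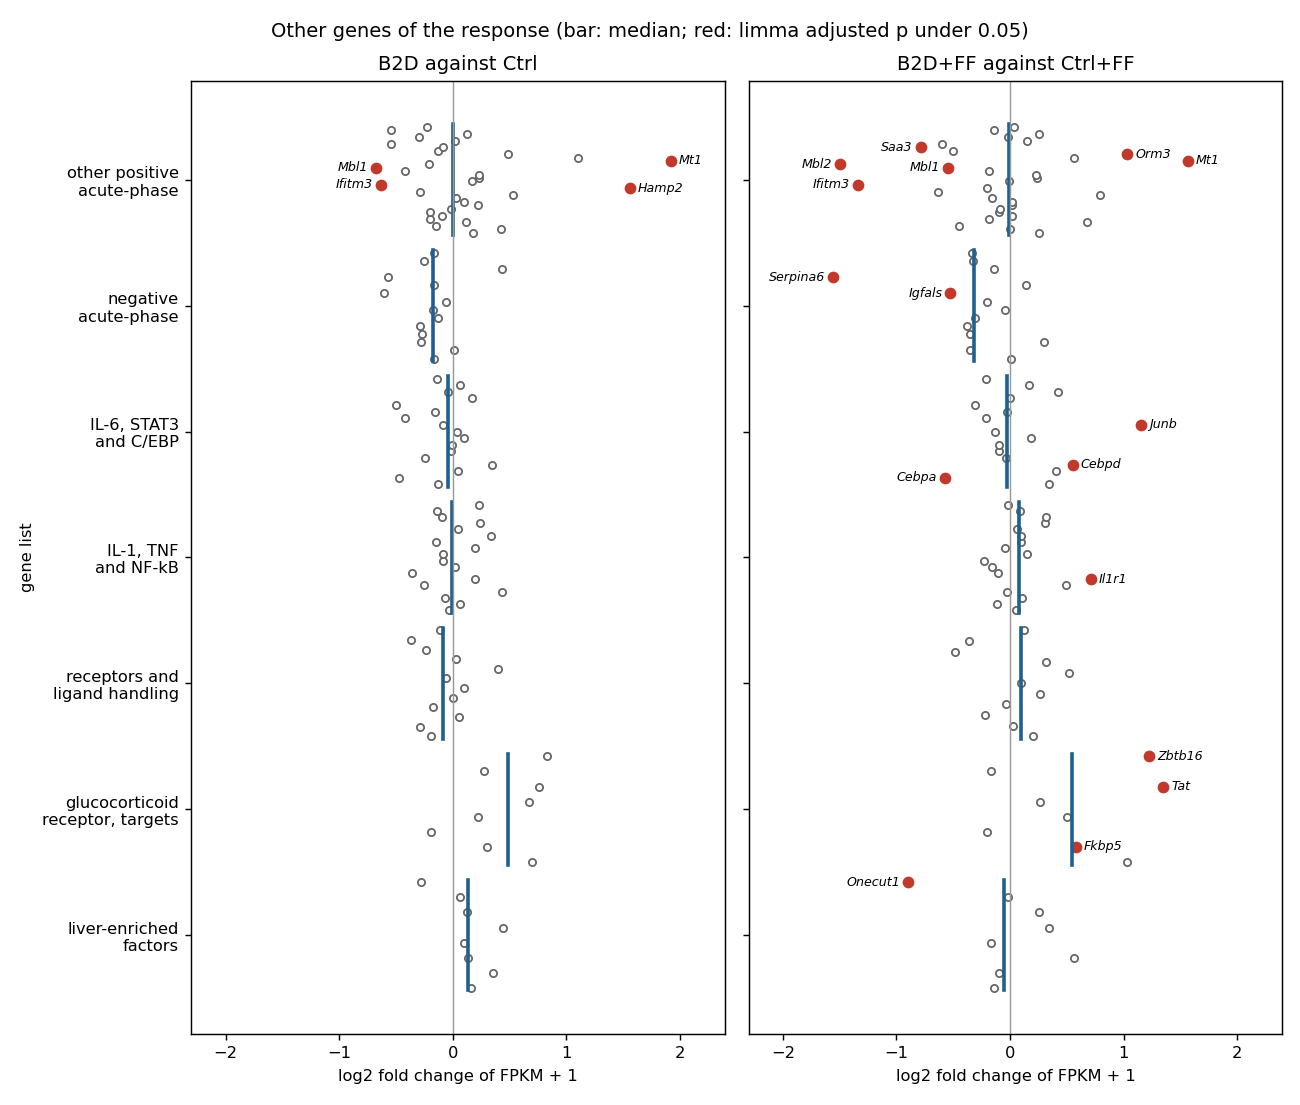
Log2 fold changes of 7 lists of genes around the acute-phase response, 1 point per tested gene, with a bar at the median of each list. Red points passed at a limma adjusted p under 0.05 and are named, and the glucocorticoid list has the highest medians, at 0.49 and 0.54.

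Kupffer cell and macrophage markers summed to 106 to 140 FPKM in Ctrl, 79.6 to 130 in B2D, 92.4 to 180 in Ctrl+FF and 58.7 to 155 in B2D+FF, with Clec4f past the threshold as lower in B2D (-0.47, limma adjusted p = 0.0412). Summed red cell markers were 184 to 250 in Ctrl and 91.2 to 391.5 in B2D, and 437 to 630 in Ctrl+FF and 284 to 690 in B2D+FF, with Alas2 lower in both experiments (-1.36 and -1.37, limma adjusted p = 0.0114 and 9.18e-04). Their part in the results on the 10 genes was not tested. Summed levels of every marker list overlapped between the diets in both experiments. Past the threshold were also Lyve1, of endothelium (0.77, limma adjusted p = 0.0294), and the hepatocyte markers Tat and Pck1 (0.84, limma adjusted p = 0.0407), all higher in B2D+FF. The other 5 of the 6 endothelial markers had negative log2 fold changes there, and the median of the 6 was -0.11. Of the 7 hepatocyte markers, 5 had positive and 2 negative values. No tested marker of stellate cells, bile ducts or lymphocytes passed in limma (at an unadjusted p under 0.05, 1 bile duct marker with fenofibrate). Few of these were tested: 3 of 5 bile duct and 1 of 6 lymphocyte markers without fenofibrate, and 2 of 5 and 0 of 6 with it.

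Among 9927 protein-coding genes, those whose deviations from their group means over the 18 libraries were most like the mean standardized deviation of the 10 genes were 2010111I01Rik (Pearson r = 0.835), Cnot10 (0.798), Phf7 (0.779), Cmc4 (0.771), Polk (0.749) and Gpatch11 (0.748). Without B2D 5 these ran from 0.637 to 0.764. The points share library depth and composition, and the values are descriptions with no test.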

How the data were processed

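Whole liver RNA of 18 mice was sequenced from mRNA libraries, 1 per mouse. The authors aligned reads with STAR to mm10, made counts with featureCounts, and deposited an FPKM table for each experiment, each scaled on its own by median-of-ratios size factors. DESeq2 is named in the submitters' processing notes. Mice are numbered within each group in accession order.

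The deposited FPKM values were not rescaled. Only genes averaging at least 0.5 FPKM entered the fits, as log2(FPKM + 1), in limma (version 3.58.1, R 4.3.3, moderated with a trend), each table alone, with Benjamini-Hochberg adjustment over all genes tested and a threshold of 0.05. The difference of the diet effects was a contrast in 1 fit of 18 libraries. Exact Mann-Whitney tests used scipy, two-sided and unadjusted. The fits were also run on simulated reads with known changes in genes above 5 FPKM. These reads had the same relative spread for every gene and no outlying mouse. They do not bear on genes with low values or on B2D 5. The 10 genes, the lists and the rule for naming genes were chosen with earlier results of these data known. The rule named, besides the 10 genes, Saa3, Orm3, up to 4 genes of each list past the threshold by smallest adjusted p (the 2 smallest where none passed) and the 6 genes most like the 10, and marker genes and further genes of short counts were named after their values were seen. Alternatives were a pseudocount of 0.1, no filter, a minimum of 5 FPKM, upper-quartile and quantile scaling, array weights, voom on reads recovered from the FPKM steps, all 4 groups in 1 fit, unadjusted p-values, a log2 fold minimum of 0.58 and each library left out. Gene overlaps and transcripts came from GENCODE vM21 and promoters from RefSeq. Protein sequences were not used here.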

Additional observations from a re-analysis of the deposited data

Results flagged for a closer look

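Within the groups, 40 sets of values (10 genes in 4 groups) were examined for a library that stood apart. Its gap to its nearest neighbour had to take up more of the group's range than Dixon's 95% value allows. For independent, normally distributed sets, chance does this for about 1 set in 20. Here the values were FPKM without a log and the genes of a group share their mice, so that rate does not apply directly. The count of such libraries was 4, and 3 of them were B2D 5.

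In B2D 5, Saa1 stood at 32.8 FPKM beside 2.87 to 5.72 in the other B2D mice, and the gap took up 0.904 of the range. Saa2 stood at 8.81 beside 0.882 to 1.83 (0.880 of the range), and Orm2 at 29.4 beside 4.77 to 8.09 (0.865 of the range). Saa3 in the same library was 0.666 and within the range of the other B2D mice, as were Hp at 2095 and Orm3 at 1.97. The neutrophil marker sum of B2D 5 was 3.06, within 2.38 to 6.96 for its group. The cause was not tested.

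Hpx in B2D 1 was 2194 FPKM, above the other B2D mice, with a gap of 0.822 of the range, and within the Ctrl range of 1501 to 2494.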

How the results depend on the processing

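Without fenofibrate, 2 of the 10 genes passed as reported, 0 with no filter on low values, 1 after upper-quartile rescaling, 1 after quantile normalization, 3 with array weights, 3 in voom (both adding Saa4), 4 at an unadjusted p under 0.05, and 0 to 2 with each library left out. With all 4 groups in 1 fit the count was 2, but of other genes, Saa4 as lower and Orm2 as higher, and Apcs (limma adjusted p = 0.0613) and Lcn2 (0.0747) did not pass. With fenofibrate, 3 passed as reported, 2 to 4 under all alternatives, and 2 to 3 with each library left out. For the difference of the diet effects, 2 passed at an unadjusted p under 0.05 and 0 under every other setting, each library left out included. Of the single log2 fold changes under the alternatives, 519 kept direction and side of the threshold, 33 lost the call, 9 gained it and 24 turned in sign. None of those that turned in sign had passed.

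The sign turned for Saa1 without fenofibrate with a pseudocount of 0.1 (-0.0088), for Orm1 (0.16) and Hp (0.069) without and Hp (0.078) with fenofibrate after quantile normalization, and, for the difference of the diet effects, for Hp with array weights (0.0063) and for Itih4 after upper-quartile (-0.061) and quantile (-0.16) scaling. With each library left out, log2 fold changes without fenofibrate ran from -0.51 to 0.27 for Saa1, -0.29 to 0.31 for Saa2, -0.20 to 0.031 for Orm1 and -0.16 to 0.057 for Hp. With fenofibrate they ran from -0.0089 to 0.21 for Hpx and -0.020 to 0.42 for Apcs, and the difference for Itih4 ran from -0.10 to 0.14. The causes were not tested. Rescaling moved the median of all genes by less than 0.1 on the log2 scale. With a minimum of 5 FPKM, Lcn2 and Saa2 without and Saa2 with fenofibrate were not tested, nor were Lcn2 and Saa2 for the difference. Depth limits Saa2, Saa3, Orm2 and Orm3 most, with under 100 reads in over 10 of the 18 libraries each. Groups of 4 or 5 mice limit every interval.

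No paired analysis was possible because the labels give the groups no shared replicate numbers.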
